A study of Mus musculus with 84 samples.

Results

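H3K4me1, the monomethylated form of lysine 4 of histone H3, was mapped by ChIP-seq in colon epithelium of male mice that had been kept on a high-fat diet (HFD) or a low-fat diet (LFD) for 20 weeks, with 3 libraries per diet. Peaks of the 6 deposited lists that shared at least 1 bp were merged, which gave 85281 regions. All 35 histone peak lists of the series, merged in the same way, gave 91186 regions, a separate merge in which added lists also fuse regions. The libraries were chosen by diet, sex and mark, and no measured value entered this rule, although earlier results of these data were known. All mice were C57BL/6, an inbred strain, bought at 5 weeks of age, acclimated for 1 week, housed singly, and carried no transgene or deletion. The HFD held 60% fat and the LFD 10% fat, and the mice on the LFD were the controls. Epithelium was shaken off the opened colon in EDTA, so each library is a mixture of all cells released in this way, and fewer cells of a type cannot be told apart from less of the mark per cell. The methods call the 3 libraries of a diet biological replicates, without saying whether a library came from 1 mouse or from pooled mice. The peak lists give positions without reads or scores, so the sequencing depth behind them is unknown here, and every value rests on where a peak was called.

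Enhancers are stretches of DNA that bind transcription factors and raise the transcription of genes, often from a distance. Nucleosomes at enhancers carry H3K4me1 whether the enhancer is in use or held in a poised state, and acetylation of lysine 27 (H3K27ac) is added where it is active. In the intestine such elements are bound by factors that define the epithelium, among them HNF4α, CDX2 and KLF factors.

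A region is called HFD-exclusive here when every HFD library and no LFD library had a peak in it, which held for 136 regions (0.159% of all), and LFD-exclusive in the reverse case, which held for 333 (0.39%). Sequences are shown for the 5 that were repeated in H3K4me1 of females, and for 2 others with an HNF4α peak. All are from mm9 (NCBIM37), plus strand, 5′ to 3′. Motifs searched on both strands were CAAAGTCCA (HNF4), TGANTCA (AP-1), GGGTGTGG (KLF) and TTTATGG (CDX), and matches are in capitals. The HFD-exclusive regions of both sexes lay in introns of Zfp618 (chr4:62638701-62638900), Tmem135 (chr7:96365601-96365800) and Ptprn2 (chr12:117898401-117898600) and of Arhgap39, near Gm17271 (chr15:76617401-76617600). The LFD-exclusive region of both sexes lay in an intron of Hsd17b12 (chr2:93926301-93926500), and of each the central 200 bp are given. The HNF4α peak is given for the HFD-exclusive region at Ypel5 (chr17:73193151-73193380) and the LFD-exclusive region near Fgd2 (chr17:29521718-29521947). At Ypel5 HNF4α was found in 0 HFD libraries and 1 LFD library, and near Fgd2 in 0 HFD and 2 LFD libraries.
Zfp618, HFD: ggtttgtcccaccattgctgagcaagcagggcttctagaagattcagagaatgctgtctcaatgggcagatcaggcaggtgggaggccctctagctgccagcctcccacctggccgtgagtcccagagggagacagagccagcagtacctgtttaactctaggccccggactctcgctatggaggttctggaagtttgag
Tmem135, HFD: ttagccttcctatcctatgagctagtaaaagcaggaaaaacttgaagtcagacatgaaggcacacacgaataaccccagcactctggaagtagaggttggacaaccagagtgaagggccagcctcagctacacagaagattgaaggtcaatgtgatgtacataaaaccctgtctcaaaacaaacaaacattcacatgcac
Ptprn2, HFD: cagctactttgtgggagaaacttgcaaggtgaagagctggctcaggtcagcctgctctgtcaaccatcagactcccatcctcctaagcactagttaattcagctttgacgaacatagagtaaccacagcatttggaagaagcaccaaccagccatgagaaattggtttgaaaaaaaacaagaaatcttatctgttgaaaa
Gm17271, HFD: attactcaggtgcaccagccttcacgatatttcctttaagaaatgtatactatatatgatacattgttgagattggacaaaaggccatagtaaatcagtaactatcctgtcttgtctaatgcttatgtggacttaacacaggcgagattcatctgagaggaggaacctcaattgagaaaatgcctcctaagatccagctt
Hsd17b12, LFD: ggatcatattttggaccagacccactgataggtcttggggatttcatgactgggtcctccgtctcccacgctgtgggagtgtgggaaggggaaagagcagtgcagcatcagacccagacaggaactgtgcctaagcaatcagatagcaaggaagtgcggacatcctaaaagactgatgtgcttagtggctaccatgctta
Ypel5, HFD: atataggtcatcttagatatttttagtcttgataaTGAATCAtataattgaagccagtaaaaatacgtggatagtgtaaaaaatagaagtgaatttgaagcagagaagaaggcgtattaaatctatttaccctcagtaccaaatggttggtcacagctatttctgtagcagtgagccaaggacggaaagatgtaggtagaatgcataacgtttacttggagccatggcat
Fgd2, LFD: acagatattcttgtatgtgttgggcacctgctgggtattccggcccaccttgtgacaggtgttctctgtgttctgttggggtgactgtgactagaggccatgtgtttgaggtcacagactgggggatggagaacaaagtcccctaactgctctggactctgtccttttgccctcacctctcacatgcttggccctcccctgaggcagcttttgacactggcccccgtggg

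Only the sequence at Ypel5 held one of these motifs, a match to AP-1. The match lay in the part of the HNF4α peak before chr17:73193201, where the region starts, and so outside the HFD-exclusive region. In the central 200 bp of all 85281 regions, the AP-1 letters were found in 6.82%, HNF4 in 0.617%, KLF in 2.57% and CDX in 3.88%. HFD-exclusive regions held AP-1 in 9 of 136 (6.62%), HNF4 in 0, KLF in 5 (3.68%) and CDX in 3 (2.21%), and LFD-exclusive regions held them in 26 of 333 (7.81%), 2 (0.601%), 15 (4.5%) and 10 (3.0%). For comparison, 5.64% of the male HNF4α peaks inside H3K4me1 regions held the HNF4 letters within their central 200 bp, and 1.4% of those outside. Mean GC content was 44.4% in HFD-exclusive, 45.5% in LFD-exclusive and 45.6% in all regions.

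The labels were checked against marker genes. All 9 epithelium markers had an H3K4me1 peak within 10 kb of their 5′ end in each of the 6 libraries, as had all 15 genes of absorptive colonocytes and all 12 of goblet cells. Cdh1, which encodes E-cadherin, was covered over 44.4 to 45.8 kb of the 50 kb around its 5′ end. The pan-leukocyte gene Ptprc and the collagen gene Col1a2 had no covered base in that window in any library, although 2 to 5 of 8 leukocyte markers and 3 to 5 of 8 fibroblast markers had a peak within 10 kb. Of 8 markers each, 7 of smooth muscle and 4 to 6 of endothelium had one, and 7 to 9 of 10 genes of liver, muscle and brain. H3K4me1 alone was thus not limited to genes of the epithelium. Median H3K27ac was 29.9 kb (HFD) and 31.1 kb (LFD) over the epithelium markers. It was 0 kb over markers of fibroblasts and of enteric neurons and glia, and over genes of other organs. Smooth muscle markers had 3.31 and 2.65 kb, leukocyte markers 2.16 and 1.89 kb, and endothelium markers 0.859 and 0.846 kb. The enteroendocrine genes, also epithelial, had 0.133 and 0.267 kb, so H3K27ac did not set every epithelial list apart.

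The 6 lists were alike in size, with 1 library below the rest. HFD libraries had 78639, 71944 and 79470 peaks and LFD libraries 76013, 79511 and 78924, so the ranges overlapped. The peaks covered 240.3, 218.6 and 238.9 Mb on the HFD and 233.5, 239.7 and 238.2 Mb on the LFD. The means were 232.6 ± 12.1 Mb (SD, n = 3) and 237.1 ± 3.26 Mb (SD, n = 3; exact permutation test, p = 0.9). These tests were two-sided, and 3 libraries against 3 cannot give a p below 0.1. HFD replicate 2 had the fewest peaks, and without it the difference in mean peak number, HFD minus LFD, turned from −1465 to 905 (exact permutation test, p = 0.9), and that in covered length from −4.54 to 2.45 Mb (exact permutation test, p = 0.5). It lacked 3079 regions that all the other libraries had, against 517 to 1900 in the others, and it alone held 873 regions, against 1754 to 2246. Peaks of at least 10 kb numbered 2796, 2238 and 2732 on the HFD and 2798, 2791 and 2762 on the LFD.

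**Figure D1:**
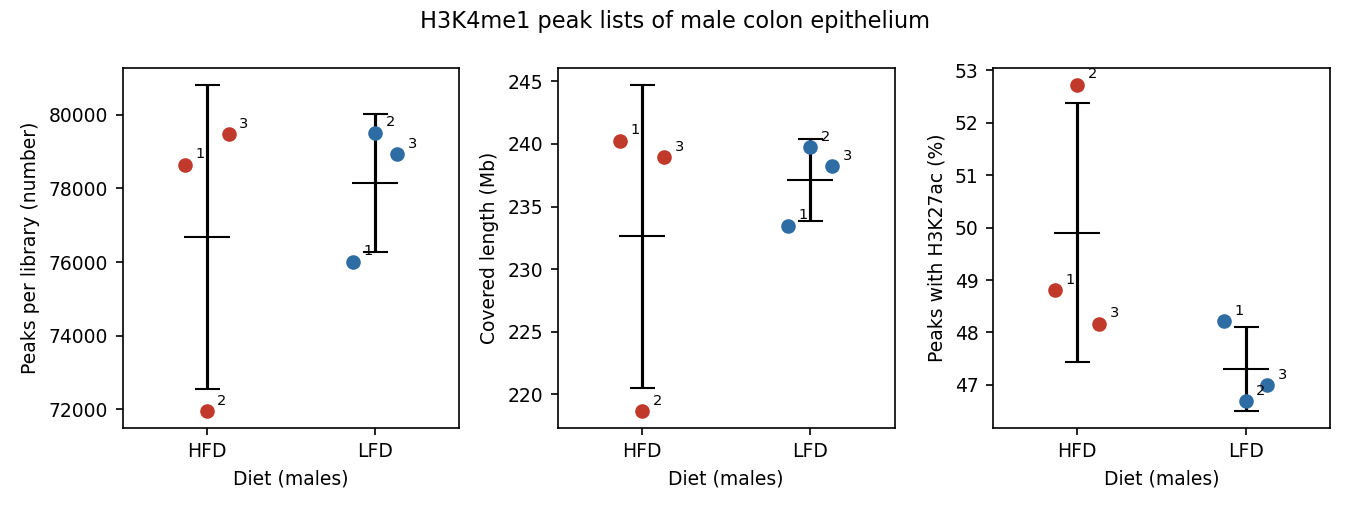
Number of H3K4me1 peaks, covered length in Mb, and percent of peaks that overlap an H3K27ac region of the same diet, for each male library (points, labelled with the replicate number), with the mean and SD of 3 libraries (black). The vertical axes do not start at 0. HFD replicate 2 lies apart in all 3 panels, at 71944 peaks, 218.6 Mb and 52.7%.

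To compare active with poised enhancers, the share of peaks that overlapped an H3K27ac region found in at least 2 of 3 libraries of the same diet was taken. It was 48.8%, 52.7% and 48.2% on the HFD and 48.2%, 46.7% and 47.0% on the LFD. HFD libraries thus had 2.6 percentage points more of their peaks with H3K27ac, and the groups overlapped at about 48.2% (exact permutation test, p = 0.2). Without HFD replicate 2 the difference was 1.19 percentage points (exact permutation test, p = 0.3). The H3K27ac regions differed between the diets in these comparisons. Against H3K27ac in at least 1 of the 6 male libraries, the same for both diets, the difference was 1.27 percentage points (exact permutation test, p = 0.6).

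Most of the male H3K4me1 landscape was common to both diets. Of the 85281 regions, 50619 (59.4%) had a peak in all 6 libraries, and these held 273 of the 333.4 Mb that any library covered. Another 10333 regions (12.1%) were seen in a single library. The number of libraries went with width and with the other marks: regions of all 6 libraries had a median width of 3800 bp, and 72.6% overlapped an H3K27ac peak of a male and 47.1% an HNF4α peak of a male. Regions of a single library had a median width of 1000 bp, with 5.99% and 5.56%, respectively. In females, a peak was found at 50602 of the 50619 regions and at 46.8% of the single-library regions. Pairs of libraries of the same diet shared on average 0.709 of the base pairs that either covered (Jaccard index, 0.688 to 0.733 over 6 pairs), and pairs of opposite diets 0.71 (0.682 to 0.73 over 9 pairs).

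**Figure D2:**
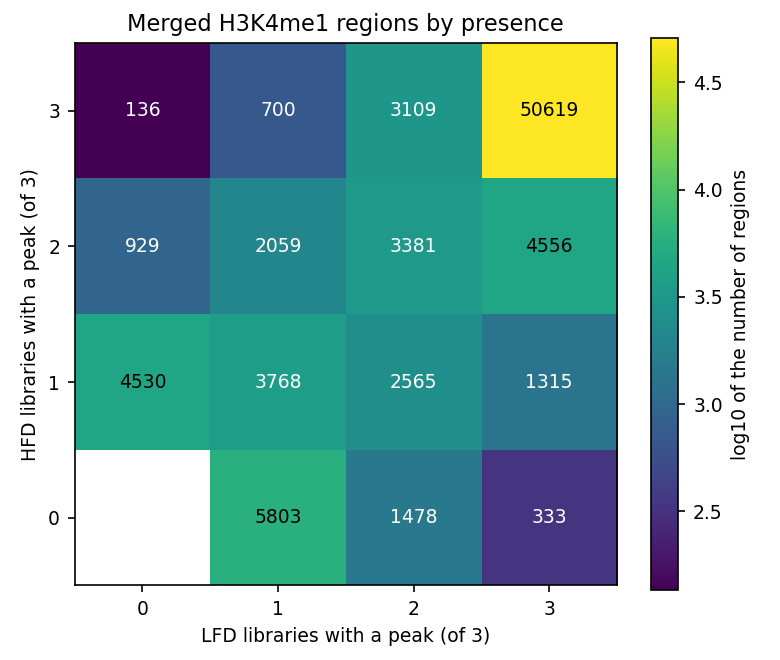
Number of merged H3K4me1 regions by the number of HFD libraries (vertical) and LFD libraries (horizontal) with a peak, with colour on a log10 scale. The count of 50619 in the upper right corner, regions of all 6 libraries, stands against 136 at the upper left (every HFD library and no LFD library) and 333 at the lower right (every LFD library and no HFD library).

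The 15 widest regions with a peak in all 6 libraries measured 72000 to 97000 bp. The widest spanned 97000 bp at Plekha6, of which 86.8 to 92.8 kb were covered on the HFD and 86.4 to 92.2 kb on the LFD. Next came Myo1e, which encodes an unconventional myosin, with a region of 90200 bp, and a region of 89000 bp that lay 330 kb from the TSS of Sox9, a transcription factor of crypt base cells. Regions of 72000 to 87200 bp were found, among others, at Clmn, Mtap7, Lgr4, Ppargc1b, Hnf4a, Gcnt3, 0610010O12Rik, Ankrd11, Ssbp3, Rreb1 and Lrig1. Lgr4 encodes a receptor for R-spondins and Lrig1 a membrane protein of stem cells. At Hnf4a itself, 74.0, 75.0 and 74.2 kb of a region of 75200 bp were covered on the HFD and 72.8, 74.6 and 73.6 kb on the LFD. The diets overlapped there, and all 15 of the widest such regions carried H3K27ac in each of the 6 male H3K27ac libraries and HNF4α in each of the 4 HNF4α libraries.

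Within a fixed window of 50 kb around the 5′ end, the most covered genes were Ccdc101, Myo1d, Gcnt3, Setd5, Clmn, Sptlc2, Capn5, Cdh1, Tet3, Arap1, Plekha6, Hoxa5, Atp1b1, Gm11696 and Sh3bgrl2. Ccdc101 was covered over 48.4 ± 1.4 kb (SD, n = 3) on the HFD and 48.6 ± 0.611 kb (SD, n = 3) on the LFD. Gcnt3, which encodes a mucin glycosyltransferase, had 48.6, 46.4 and 43.5 kb on the HFD and 48.9, 49.1 and 47.0 kb on the LFD. Over all 22089 protein-coding genes with a symbol of their own, the median was 7.33 kb, and 4059 genes had no covered base in any library. Across genes, RNA levels were higher with wider coverage in colon scrapings of other male mice, the germ-free recipients of transplanted bacteria. These recipients were fed the HFD or the LFD and received bacteria of HFD-fed or LFD-fed donors. The RNA of each gene was averaged over all 12 libraries, whatever the diet and donor. The median was 0 CPM (read counts scaled to the library total, not corrected for gene length) for the 3102 genes without coverage, 9.86 CPM for the 3765 genes with more than 5 and up to 10 kb, and 57.5 CPM for the 2954 genes with more than 20 kb. Genes are not independent replicates, and no test was made.

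Regions found on 1 diet only were few, 136 and 333. In 133 of the 136 and in all 333, the 3 libraries had at least 1 window of 200 bp in common, and in the other 3, nearest to D19Wsu162e, Tmem135 and Sec22a, the peaks were joined only through overlaps in pairs. Without HFD replicate 2 the numbers were 665 and 556, so the LFD no longer had more. These regions were narrow, with medians of 1800 bp (HFD) and 1600 bp (LFD) against 2600 bp over all regions, and lay at a median of 36.6 and 29.3 kb from the nearest TSS against 19.7 kb. Of the HFD regions, 9 touched the 1 kb around a TSS, 19 an exon, 45 an intron and 63 no gene, and of the LFD regions 32, 35, 95 and 171, respectively. Regions seen in 3 libraries of mixed diets had a median width of 1600 bp and a median distance of 27.4 kb.

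The same regions were looked up in lists that had no part in choosing them. In females, the libraries of HFD mice had a peak at 41.7% of the HFD-exclusive and 41.1% of the LFD-exclusive regions of males (means of 3 libraries), and the libraries of LFD mice at 30.9% and 31.7%. More HFD than LFD females had a peak at 58 of the HFD-exclusive regions and fewer at 30, but at LFD-exclusive regions the direction was the same, with 134 and 66. Regions seen in 3 male libraries of mixed diets gave 1780 and 1109 of 4624. The diet of the males at these regions was thus not repeated by the females as a group. Male H3K27ac was found in any library at 11.8% of HFD-exclusive, 19.5% of LFD-exclusive and 15% of the regions of 3 libraries of mixed diets, against 49.4% of all regions. A mean of 5.39% of HFD-exclusive regions had it in HFD males and 4.17% in LFD males, against 12.3% and 13.1% of LFD-exclusive regions and 40.1% and 39.1% of all regions. Of the 136 HFD-exclusive regions, 4 (2.94%) were HFD-exclusive and 1 (0.735%, nearest to Ugt1a5) was LFD-exclusive in females. Of the 333 LFD-exclusive regions, 1 (0.3%) was LFD-exclusive in females and 5 (1.5%, nearest to Rpa1, Myc, Zfp462, Suz12 and Iyd) were HFD-exclusive. Over regions of 3 libraries of mixed diets the shares were 1.45% HFD-exclusive and 0.541% LFD-exclusive, and over all regions 0.473% and 0.156%. The genes of the opposite cases were named after their values were seen.

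The region at Zfp618, which encodes a zinc finger protein, was covered over 2.8, 2.2 and 1.0 kb in the HFD libraries and over 0 kb in the LFD libraries. That at Tmem135, a gene for a membrane protein of mitochondria and peroxisomes, had 1.2, 1.2 and 2.2 kb, that at Ptprn2, which encodes a protein of secretory granules, 0.8, 1.2 and 0.8 kb, and that near Gm17271 0.8, 1.2 and 1.0 kb. Every HFD library of males and females had a peak at these 4 regions and no LFD library had one. H3K27ac was present at most in 1 of the 6 male libraries. At Hsd17b12, which encodes an enzyme of fatty acid elongation, the LFD libraries had 1.4, 1.6 and 1.2 kb. H3K27ac was found there in 1 library of each diet. One LFD-exclusive region was also exclusive to the LFD in male H3K27ac, and 1, at 770 kb from the nearest TSS, that of Pcdh17, went the opposite way, with H3K27ac in 3 of 3 HFD and 0 of 3 LFD libraries. The former lay in an intron of Dennd5b, which encodes an activator of Rab proteins in membrane traffic, where the LFD libraries had 3.4, 3.0 and 3.2 kb of H3K4me1 and the HFD libraries 0, and H3K27ac was present in 3 of 3 LFD and 0 of 3 HFD libraries. In females, by contrast, all 6 H3K4me1 libraries had a peak at the Dennd5b region, and HNF4α was found there in 1 male library of each diet.

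The widest HFD-exclusive regions reached 4800 bp. They lay at D19Wsu162e, with 2.0, 2.0 and 2.8 kb in the 3 HFD libraries, and in an intron of Tnks, the gene of a tankyrase that acts on Axin in Wnt signalling, with 4.8, 1.6 and 1.6 kb. The region at Ypel5 was covered over 3.6, 4.2 and 2.0 kb and that in Mal2, a gene for a protein of apical transport in epithelial cells, over 1.8, 4.0 and 1.8 kb. The other 6 of the 10 widest were nearest to Glod4, Gm11016, Lclat1, Arntl2, Ssh2 and Nsd1, at 3400 to 3800 bp. The region nearest to Arntl2, which encodes a clock transcription factor, touched an exon of the neighbouring gene Stk38l. Flrt3 was the only gene nearest to more than 1 HFD-exclusive region, and both of its regions lay in introns of Macrod2, at 446 and 529 kb from the TSS of Flrt3. H3K27ac was found at 2 of the 10 widest, in 1 of 3 HFD libraries each, at Mal2 and Arntl2.

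The widest LFD-exclusive regions reached 4400 bp, between genes near Lysmd4, with 2.0, 1.0 and 4.4 kb in the 3 LFD libraries. That in an intron of Ralgapa1, the gene of an inhibitor of Ral GTPases, had 2.2, 4.0 and 1.6 kb. At Sult1b1, which encodes a sulfotransferase of the gut, the region began next to a broad domain at the TSS that all 6 libraries shared, and the LFD libraries had 2.4, 3.0 and 2.8 kb. Gm7112, Rbfox2, Myo16, Ccdc6, Prelid2 and Pag1 completed the 10 widest with Dennd5b, at 3600 to 4000 bp. The region near Gm7112 had H3K27ac in all 6 male libraries. Gspt1, Plcb4, Prelp, Zfp148, Msl3 and Pla2g10 were each nearest to 2 LFD-exclusive regions. Zfp148, a zinc finger transcription factor, had 2.8, 1.6 and 1.8 kb in 1 intronic region and 1.4, 0.8 and 1.6 kb in the other. One of the Msl3 regions lay at the TSS, on the X chromosome, which held 22 of the 333 LFD-exclusive regions (6.61%) and 2 of the 136 HFD-exclusive regions (1.47%), against 2036 of all 85281 regions (2.39%). Without HFD replicate 2 it held 30 of 556 (5.4%) and 16 of 665 (2.41%). The number of peaks on the X was 1574, 1163 and 1537 on the HFD and 1582, 1631 and 1550 on the LFD, lowest in HFD replicate 2.

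**Figure D3:**
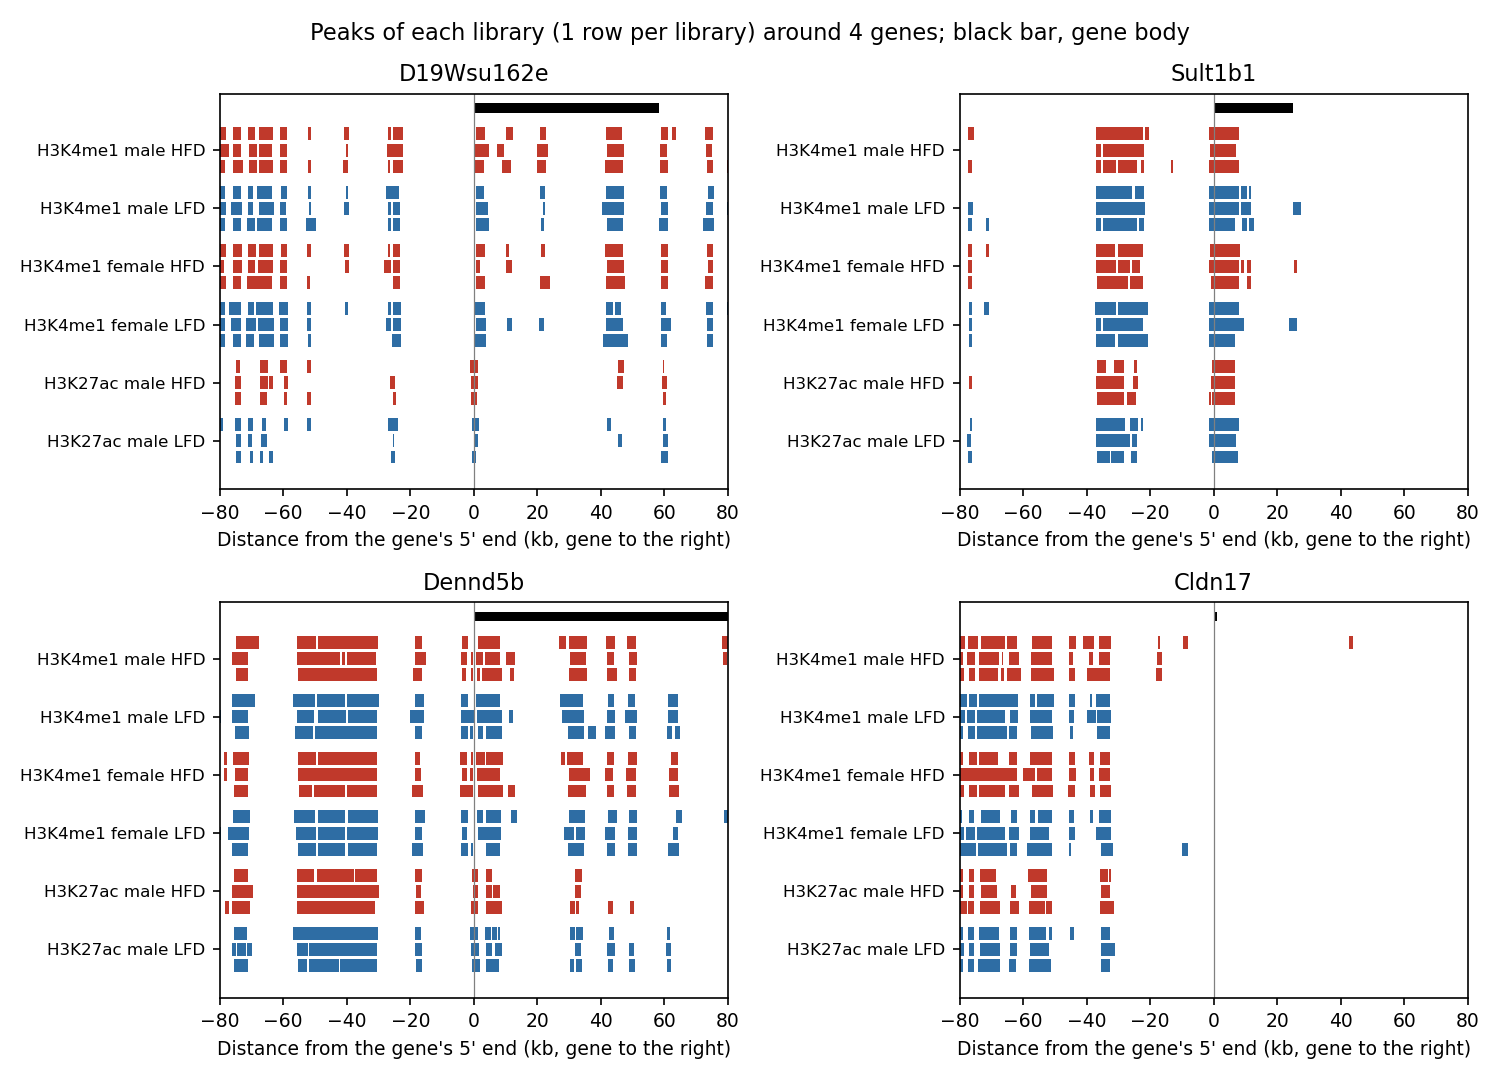
Peaks of each library, 1 row per library and 3 rows per group (HFD red, LFD blue), by distance in kb from the gene's 5′ end, with the gene to the right and its body as a black bar. H3K4me1 peaks of HFD males without a counterpart in LFD males appear near +10 kb at D19Wsu162e, where those of replicates 1 and 2 do not overlap each other, and between −18.2 and −16.2 kb at Cldn17. Peaks of LFD males without a counterpart in HFD males appear near +10 kb at Sult1b1 and between +60.8 and +64.8 kb at Dennd5b, where females of both diets have peaks.

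Of the 244 genes of the 19 lists that had a symbol in the annotation, none was nearest to an HFD-exclusive region and 5 were nearest to an LFD-exclusive region. Without HFD replicate 2 there were 6 and 11, among 624 and 539 nearest genes in all. For all 22089 genes and all 6 libraries the numbers were 132 and 326. The 5 genes were Acadl, Foxa1, Myc, Ppargc1a and Klf4. The region in Acadl, which encodes the long-chain acyl-CoA dehydrogenase of fatty acid oxidation, was covered over 1.8, 1.4 and 1.6 kb on the LFD, 11.1 kb from the TSS. The region nearest to Ppargc1a, a coactivator of mitochondrial and fatty acid oxidation genes, had 1.0, 1.4 and 0.6 kb and lay 122 kb away. Klf4, a transcription factor of differentiated epithelium, had 1.0, 0.4 and 1.2 kb at 53.8 kb. Foxa1, a pioneer transcription factor, had 1.6, 1.6 and 2.2 kb at 109 kb, in an intron of Mipol1, and Myc, a growth regulator and Wnt target, had 2.2, 2.0 and 0.6 kb at 474 kb. No one of these 5 regions had H3K27ac or HNF4α in any male library, and 1 or more HFD females had an H3K4me1 peak at each.

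Sequence covered on 1 diet only was also found inside regions that both diets shared. In windows of 200 bp, the unit of SICER, 5454 windows (1091 kb, 0.327% of those covered by any library) were covered in every HFD library and no LFD library, and 8004 (1601 kb, 0.48%) in the reverse sense. Of these, 89.9% and 83.7% lay in shared regions, as did 95.0% of all covered windows. Without HFD replicate 2 the windows numbered 19086 (1.17%) and 14731 (0.906%), so that the HFD had more. The longest stretch inside a shared region measured 2.0 kb on the HFD, near Pcdh17, and 3.0 kb on the LFD, near Sil1, both named after their values were seen. Most were short, with a median of 200 bp on both diets.

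Diet differences at genes were tested with limma on log2(covered kb + 0.2) in the window of 50 kb, where fold changes of little-covered genes are understated. Of 17164 genes with a mean of at least 1 kb, none passed an adjusted p of 0.05 (0% of the genes tested; lowest limma adjusted p = 0.904). At an unadjusted p under 0.05 there were 271 genes higher on the HFD (1.58%) and 480 lower (2.8%). The 3 values of each diet did not overlap for 449 genes higher on the HFD (2.62%) and 1005 lower (5.86%). With covered length scaled to each library's total the numbers were 725 and 856, and without HFD replicate 2 they were 1439 and 1463, so the excess of lower genes rested on that library. Genes higher on the HFD made up 30.9% of all genes apart, 45.9% after scaling and 49.6% without HFD replicate 2. Of the 449 and 1005 genes, 58.1% and 58.6% had a higher mean in HFD than in LFD females, as had 57.3% of all genes tested.

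The genes with the smallest p are described by their values. At Asxl3, a member of a Polycomb-linked gene family, the HFD libraries had 6.4, 7.4 and 7.0 kb and the LFD libraries 3.8, 3.4 and 3.6 kb, a log2 difference of 0.91 ± 0.09 (SE; limma adjusted p = 0.904). HFD females had 5.8, 5.0 and 6.6 kb and LFD females 2.2, 2.4 and 3.8 kb. Asxl3 was the only 1 of 278 genes named or listed whose groups did not overlap, in the same direction, in both sexes. Over all genes, 22 of the 449 higher on the HFD in males (4.9%) were apart the same way in females, against 5.79% of all genes tested, and 28 of the 1005 lower ones (2.79%), against 2.93%. Kif5c, which encodes a kinesin, had 3.0, 2.6 and 3.2 kb against 1.2, 1.4 and 1.4 kb (log2 difference 1.03 ± 0.11, SE; limma adjusted p = 0.904), and its female groups overlapped. D19Wsu162e, with its HFD-exclusive region, had 9.4, 12.6 and 10.8 kb against 5.4, 6.2 and 6.8 kb. Rgs3, a regulator of G protein signalling, Rasl2-9-ps, Spopl, Fam123a, BC003266, Svs3b and Xaf1 completed the 10 smallest p of this direction, with log2 differences of 0.52 to 1.02 and an adjusted p of 0.994. In females the mean of these 10 genes was higher on the HFD for 9 and lower for Spopl.

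In the other direction, 8430410A17Rik had 2.07, 1.47 and 1.87 kb on the HFD and 4.87, 3.67 and 4.47 kb on the LFD, a log2 difference of −1.18 ± 0.16 (SE; limma adjusted p = 0.994). The mitotic kinesin gene Kif18a and its neighbour Mettl15 share the same covered windows, with 2.6, 2.4 and 2.6 kb against 4.6, 4.2 and 3.8 kb. Arc, an activity-induced gene, had 5.8, 5.8 and 6.0 kb against 8.4, 7.8 and 8.2 kb, and Trap1, which encodes a mitochondrial chaperone, 2.6, 2.2 and 1.8 kb against 4.2, 4.6 and 4.0 kb. Slamf8, Gm10311, 2010111I01Rik, Alkbh8 and Tesk1 were the others, with log2 differences of −0.94 to −0.57. In females the mean was lower on the HFD for 5 of these 10 genes and higher for 5. H3K27ac in the same windows of males had a lower mean on the HFD for 4 of the 10, a higher mean for 5 and an equal mean for 1. For the 10 genes with more H3K4me1 on the HFD, mean H3K27ac was higher on the HFD for 6, lower for 1 and equal for 3.

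**Figure D4:**
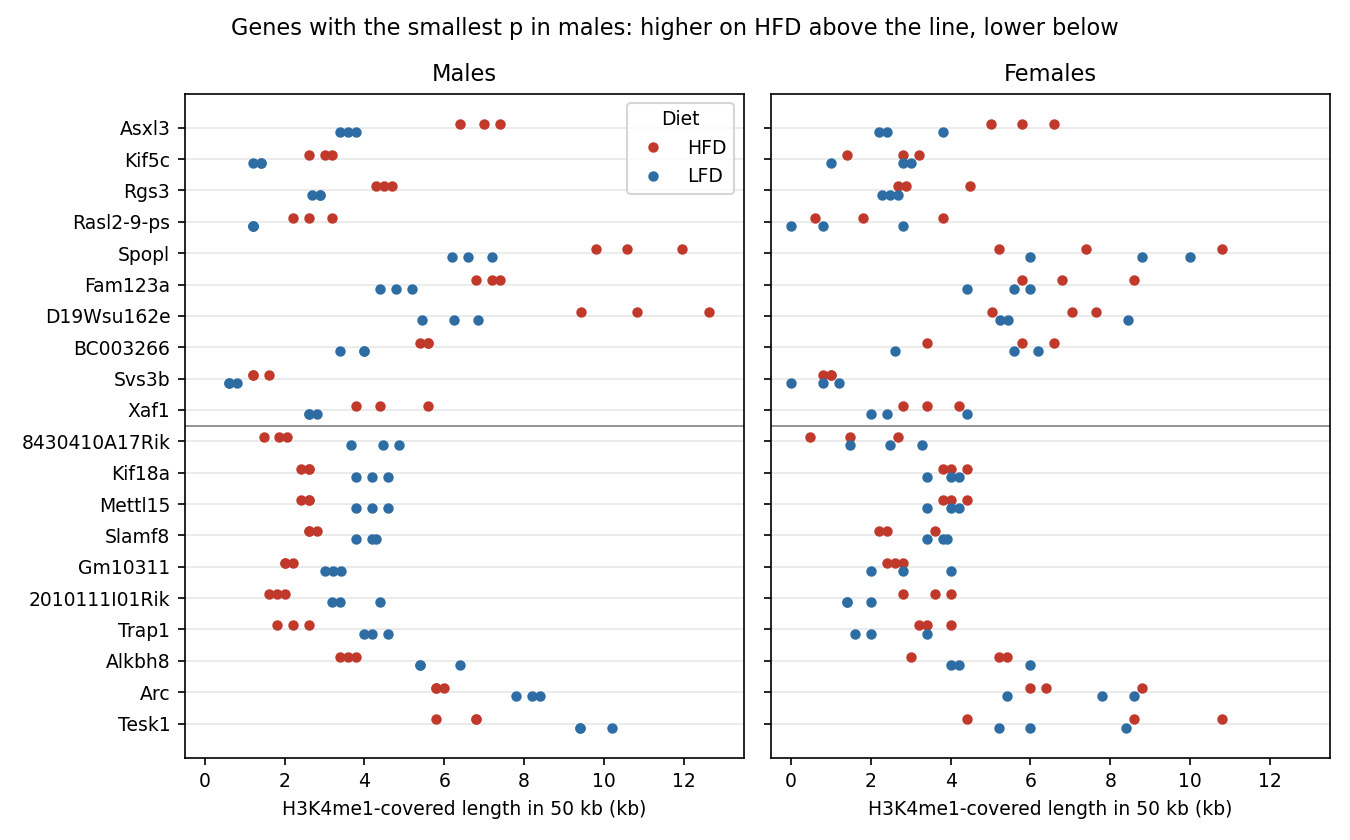
H3K4me1-covered length in kb in the 50 kb around the 5′ end for the 10 genes with the smallest p in each direction in males, for each library (points) of males (left) and females (right). Points of males do not overlap between diets, since the genes were chosen on them, and in females the diets overlap for every gene but Asxl3 and 2010111I01Rik.

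Claudin 17 (Cldn17) was under the filter of 1 kb and was named after its values were seen, since the fit without a filter called it. It had 2.2, 1.6 and 2.0 kb on the HFD and 0 kb in every LFD library, and passed in that fit with limma (adjusted p = 0.0176). Its HFD-exclusive region, 17.2 kb from the TSS, had no peak in any female library of either diet and no H3K27ac in males. The same fit called Figf, an angiogenic growth factor, with 0 kb on the HFD and 1.2, 1.0 and 1.31 kb on the LFD (limma adjusted p = 0.0176). The LFD-exclusive region of Figf, on the X chromosome, had a peak in 2 HFD and 1 LFD female libraries and no H3K27ac in males. Pnpla5 and Sult4a1, the other two, had 1.0 kb in each HFD and 0.8 kb in each LFD library (limma adjusted p = 0.00045), a step of a single SICER window without any spread between replicates. These were 4 of the 22089 genes in the fit without a filter. That fit took in 4059 genes with no covered base in any library, which have no spread either. Its adjusted p-values, that of Cldn17 among them, are therefore given as description only.

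Genes of the epithelium and its metabolism were broadly covered, and the diets were close. The median over the 9 epithelium markers was 35.6 kb on the HFD and 36.7 kb on the LFD, that over 15 genes of tight junctions and barrier 28.47 and 28.48 kb, and that over 19 intestinal transcription factors 25.59 and 25.62 kb, against 7.24 and 7.4 kb over all genes. All 9 epithelium markers had a log2 difference below 0 (lowest −0.141), as had 58.7% of all genes tested. Of the 9, 1 (11.1%), Epcam, had diets apart, lower on the HFD. With scaled covered length 5 of the 9 were below 0 and 0 had diets apart. Cdx1 had 36.0, 39.4 and 39.4 kb on the HFD and 37.2, 37.2 and 39.0 kb on the LFD, Cdx2 22.2, 27.4 and 23.8 kb and 29.0, 28.6 and 27.2 kb. The barrier gene Cldn1 was uncovered but for 0.8 kb in 1 LFD library. Among absorptive colonocyte genes, the chloride and bicarbonate exchanger Slc26a3 had 25.1, 22.4 and 24.7 kb against 27.5, 27.9 and 24.9 kb, and the carbonic anhydrase Car4 42.2, 41.2 and 43.2 kb against 44.1, 41.7 and 42.0 kb. The water channel Aqp8 and the sodium and proton exchanger Slc9a3 overlapped between the diets in the same way. Of 15 genes, 1 (6.67%), Ceacam1, had diets apart, lower on the HFD, where 5.86% of all genes tested did so. The mucin gene Muc2 varied more within than between diets, with 17.0, 12.2 and 25.2 kb and 22.2, 15.2 and 25.4 kb, and Tff3, Clca3 and Fcgbp, which encode other secreted products of goblet cells, overlapped as well. The diets were apart for 2 of 12 goblet genes, Agr2 and Retnlb, both lower on the HFD (16.7%, against the same 5.86%). With scaled covered length only Retnlb was (8.33%, against 4.99%), and without HFD replicate 2 both were (16.7%, against 8.52%). In females 0 of the 12 were lower, and 2 were higher on the HFD with diets apart (16.7%, against 5.79%).

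**Figure D5:**
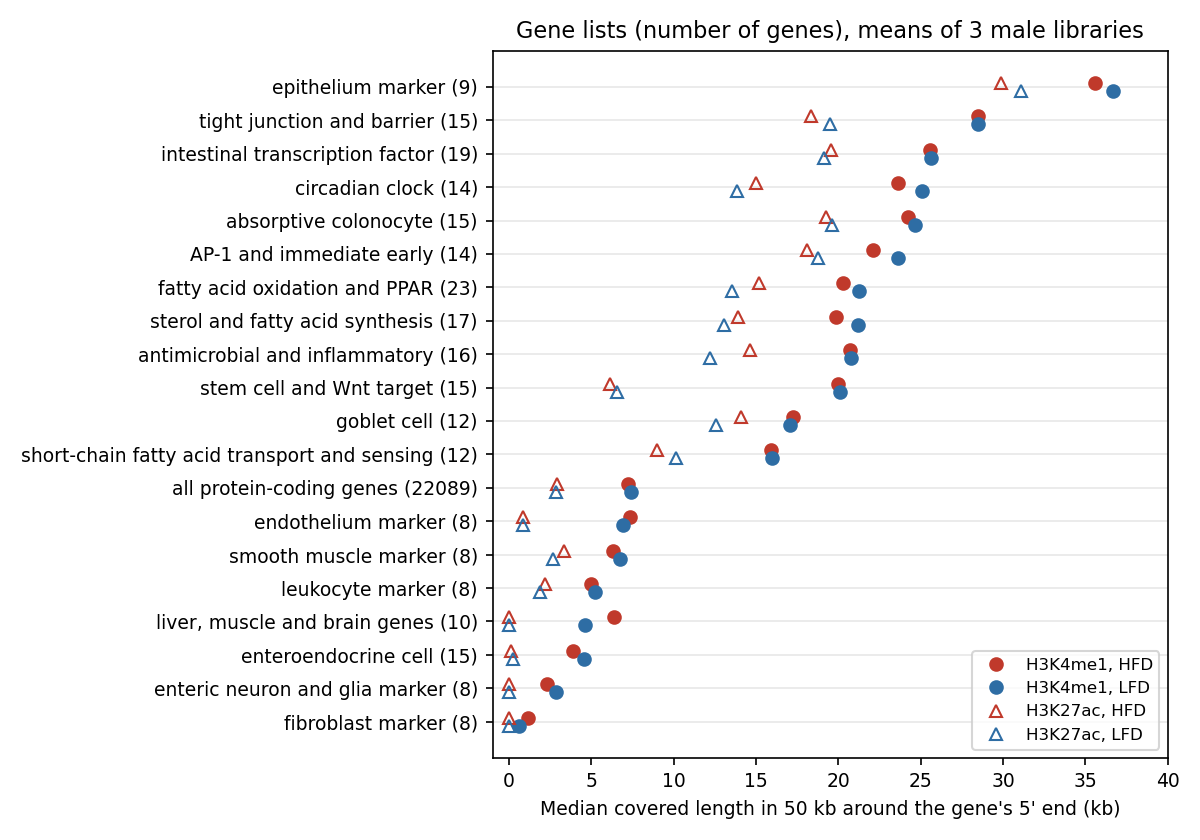
Median covered length in kb within the 50 kb around the 5′ end over the genes of each list (number of genes in parentheses), for H3K4me1 (filled circles) and H3K27ac (open triangles) on the HFD (red) and the LFD (blue), from the mean of 3 male libraries per gene. Lists of epithelial genes other than the enteroendocrine list (3.91 and 4.57 kb) lie to the right of the median of all protein-coding genes at 7.24 and 7.4 kb. The diets lie close together in most lists. Wider gaps include H3K4me1 over genes of liver, muscle and brain, at 6.4 kb (HFD) and 4.6 kb (LFD). Another is H3K27ac over antimicrobial and inflammatory genes, at 14.7 and 12.2 kb.

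The list of sterol and fatty acid synthesis had the highest share of genes with diets apart in 1 direction among the 19 lists. Of its 17 genes, 5 (29.4%) had diets apart with less H3K4me1 on the HFD and none with more, where 5.86% and 2.62% of all genes tested did so. The median log2 difference was −0.12, against −0.03 over all genes tested, and none passed an adjusted p of 0.05 with limma. Scd1, which encodes the stearoyl-CoA desaturase, had 7.0, 9.0 and 7.2 kb on the HFD and 11.6, 10.2 and 10 kb on the LFD (log2 difference −0.45 ± 0.13, SE; limma adjusted p = 0.994). Its paralogue Scd2 had 27.6, 29.0 and 31.6 kb against 34.6, 36.8 and 32.4 kb. The others were Fdft1, the squalene synthase, Acaca, the acetyl-CoA carboxylase, and Insig1, which retains SREBP in the endoplasmic reticulum, with 7.4, 7.4 and 7.4 kb against 10.25, 7.6 and 7.8 kb. Srebf1 and Srebf2, which encode the SREBP transcription factors, overlapped between diets. With covered length scaled to the library's total, Fdft1, Scd1 and Scd2 were still apart (17.6% of the list, against 4.99% of all genes tested), and without HFD replicate 2 the same 5 genes were (29.4%, against 8.52%). In females, 1 of the 17 (5.88%, against 2.93%), none of these 5, was lower on the HFD in this sense, and the median log2 difference was 0.02. Median H3K27ac in males was 13.9 kb on the HFD and 13.1 kb on the LFD. The next highest share in 1 direction was that of the genes of liver, muscle and brain. Of these, 2 of 9 (22.2%) were higher on the HFD with diets apart and 0 were lower. Their share was also 22.2% after scaling and without HFD replicate 2, and in females 0 were higher and 1 was lower (11.1%).

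The next counts of genes with diets apart stand beside 2.62% (higher on the HFD) and 5.86% (lower) of all genes tested. Of the 22 genes of fatty acid oxidation and their PPAR regulators tested, 1 was higher (4.55%) and 2 were lower (9.09%) on the HFD with diets apart, with a median log2 difference of 0.02. Pdk4, which limits glucose oxidation, had the higher coverage, and Acadvl and the carnitine carrier Slc25a20 the lower. With scaled covered length 0 of the 22 were lower in this sense, and 1 was higher (4.55%). Ppara had 19, 18.8 and 20.4 kb against 11.8, 18.8 and 23.2 kb, and Pparg, Ppard and Rxra overlapped. In the AP-1 list, 1 of 14 (Junb, 7.14%) was lower with diets apart, and Fos had 28.8, 28.6 and 27.6 kb against 30.0, 28.8 and 25.8 kb, with Fosb, Fosl1 and Fosl2 overlapping too. Of the clock genes 1 of 14 (7.14%) was apart, Cry1, with 16.8, 13.6 and 17.4 kb against 21.0, 18.8 and 18.4 kb, while Per1, Per2 and Per3 overlapped. Among stem cell and Wnt genes 2 of 15 (13.3%) were higher with diets apart. They were Lrig1 and Nkd1, a Wnt antagonist, with 7.0, 8.6 and 7.84 kb against 5.8, 5.64 and 6.0 kb (limma, unadjusted p = 0.00700 over all genes and adjusted p = 0.994), whereas Lgr5, Ascl2, Axin2 and Smoc2 overlapped.

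Of the 16 antimicrobial and inflammatory genes, 1 was higher (Pigr, the immunoglobulin receptor of the epithelium) and 1 lower on the HFD with diets apart. The latter was Nos2, the inducible nitric oxide synthase, with 6.8, 7.0 and 8.0 kb against 8.6, 9.4 and 10.2 kb. Reg3b and Reg3g, which encode antibacterial lectins, were variable, with 10.2, 2.0 and 3.0 kb against 3.2, 1.4 and 4.4 kb for Reg3b, and Duox2 overlapped. For transport and sensing of short-chain fatty acids, 2 of 12 genes were lower with diets apart, Ffar2 and Hdac1, and 1 was higher, Slc16a3. The receptor gene Ffar2 had 23.0, 20.2 and 24.2 kb against 24.99, 24.59 and 24.39 kb, and Slc16a1, Slc5a8 and Ffar3 overlapped. Of the tight junction genes, Cldn2 alone of 14 tested was apart, with 29.4, 31.8 and 30.0 kb against 32.6, 36.8 and 35.8 kb, and Cldn3 and Cldn4 overlapped. Enteroendocrine genes were little covered, with medians of 3.91 and 4.57 kb, and 8 to 13 of 15 had a peak within 10 kb. Chga, Gcg and Pyy overlapped between diets, Chgb was covered in 2 LFD libraries only, and Neurog3 was higher on the HFD with diets apart. Over all 19 lists, 8 genes were higher (3.51%) and 17 lower (7.46%) in this sense among 228 tested, against 2.62% and 5.86% of all genes. With scaled covered length there were 8 (3.51%) and 11 (4.82%), against 4.22% and 4.99% of all genes. Of the 17 lower genes 9 were among these 11, without Agr2, Acadvl, Slc25a20, Acaca, Insig1, Junb, Cldn2 and Epcam. Without HFD replicate 2 there were 18 (7.89%) and 26 (11.4%), against 8.38% and 8.52%, and in all 6 libraries none passed an adjusted p of 0.05 with limma.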

How the data were processed

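ChIP-seq of H3K4me1 (antibody ab8895) in male colon epithelium was used from 6 libraries, grouped by the diet and sex in the labels. According to the methods, the authors aligned reads to mm9 (Bowtie 0.12.8 and Picard 1.110 are named in the submitters' processing notes), kept unique, de-duplicated reads, and called peaks in each library with SICER 1.1 (window 200 bp, gap 400 bp, FDR 0.001). The deposited lists hold start and end only. H3K27ac, HNF4α and female H3K4me1 lists, and the authors' table of raw read counts per gene of 12 recipients (39904191 to 48026846 counts per library, converted here to CPM), served as other readouts.

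No peak ended past the NCBIM37 chromosomes. Genes and TSS were those of GENCODE vM1, without 278 entries of shared symbols, and the nearest TSS was measured from a region's centre. Covered length was compared with limma 3.58.1 in R 4.3.3 (lmFit, eBayes, Benjamini-Hochberg), and values per library with exact permutation tests in Python 3.11.15. The steps were tested on simulated data. Named were, per diet, the 10 widest exclusive regions, genes nearest to 2 of them, list genes nearest to any, regions repeated in females or H3K27ac, the 10 smallest p per direction, the 15 most covered genes, and the first 4 genes of each list. A few items that this rule names are not reported here. Members and lists were chosen with earlier results of these data known. Alternatives covered windows, pseudocount, filters, scaling, merging, overlap, a replicate block, and leaving out each library. Scaling, and leaving out a library, for counts of genes with diets apart, and list genes, windows and X-chromosomal regions without HFD replicate 2, were added after the data were seen.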

Additional observations from a re-analysis of the deposited data

Results flagged for a closer look

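At 2010111I01Rik the diets were apart in both sexes and in opposite directions. Male HFD libraries had 2.0, 1.8 and 1.6 kb of H3K4me1 in the 50 kb around the 5′ end and LFD libraries 3.4, 4.4 and 3.2 kb, a difference of means of −1.87 kb. Female HFD libraries had 3.6, 4.0 and 2.8 kb and LFD libraries 1.4, 1.4 and 2.0 kb, a difference of 1.87 kb. The difference between the sexes was not tested, and the gene was 1 of 278 compared in this way, 20 of which were chosen on the male libraries.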

How the results depend on the processing

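The depth behind the lists is unknown, so a missing peak may be a peak under the caller's threshold. With 1 library left out, the difference in peaks (HFD minus LFD) ran from −2857.8 to 905.17 and in covered length from −8.36 to 2.45 Mb, each above 0 only without HFD replicate 2, and the share with H3K27ac from 1.19 to 3.47 percentage points. HFD-exclusive regions then numbered 304 to 665 and LFD-exclusive 556 to 914, since fewer libraries had to coincide, and a peak in at least 2 libraries of 1 diet and none of the other gave 1065 and 1811. Genes called by limma rose from 0 to 4 without the filter and were 0 to 6 with 1 library left out: 5 without HFD replicate 1, 4 without HFD replicate 3, 2 without LFD replicate 1 and 6 without LFD replicate 3. Genes with diets apart then numbered 865 to 1439 (higher on the HFD) and 1463 to 2279 (lower). With the replicate block limma called 0 genes, and the differences of −1465 peaks (exact sign-flip test, p = 1), −4.54 Mb (exact sign-flip test, p = 1) and 2.6 percentage points (exact sign-flip test, p = 0.25, the smallest that 3 pairs allow) were unchanged by construction. The labels do not say whether same-numbered libraries belong together, and the main comparison treated them as unpaired. Their deviations from the diet means correlated at 0.0196, −0.0457 and 0.0421 across genes, and those of libraries with different numbers at −0.0518 to 0.0285. Such correlations cannot decide whether the libraries were paired.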
